A study of Papio anubis and Macaca mulatta with 6 samples.

Results

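The genes of the vascular endothelial growth factor (VEGF) and angiopoietin pathway were followed across the cell types of the immature primate testis. The set was chosen by name and held 10 genes, the ligands VEGFA, VEGFB, VEGFC and PGF with the receptors KDR, FLT1 and FLT4, and the ligands ANGPT1 and ANGPT2 with the receptor TEK. All 10 were listed once in each species, among 34178 baboon genes and 21356 rhesus genes. Unselected testis cells of 2 baboons and 2 rhesus monkeys had been sequenced with the 10x Genomics 3′ chemistry, in 6 libraries, and unique molecular identifiers (UMIs) had been counted per gene and barcode. Baboon 1 (libraries 1A and 1B) and rhesus monkey 2 (libraries 2A and 2B) had 2 libraries each, and the library of baboon 2 was made with version 3 of the chemistry while all others were made with version 2. All 4 animals were prepubertal, and no treatment, genetic change or agent is given for any of them. The tissue was taken at necropsy from animals euthanized for other reasons. The deposited text and the methods of the study give the ages of the baboons and the rhesus monkeys the other way round, so that age was not used here. In both, the 2 animals of each species differ in age, with a newborn among the 4 animals. The tissue was digested with collagenase, interstitial cells were washed off and the rest was digested with trypsin, which limits what the shares of vascular and interstitial cells can say about the organ.

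VEGFA, VEGFB and PGF bind the receptor tyrosine kinase FLT1, VEGFA also binds KDR, the main signaling receptor of blood vessel endothelium, and VEGFC binds FLT4, which is best known from lymphatic vessels. ANGPT1, commonly made by the cells around vessels, activates TEK on endothelial cells and stabilizes vessels, while ANGPT2 often acts against it and is stored by endothelial cells. In the testis the vessels run in the interstitium between the seminiferous tubules, and the Sertoli cells and germ cells lie inside the tubules without vessels of their own.

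The libraries held between 16875294 and 49803025 UMIs, of which 57.7% to 87.3% were in cells, and 23070 baboon cells and 26478 rhesus cells were kept, with a median of 1445 to 2746 UMIs per cell by library. The libraries of version 2 shared between 51 and 145 cell barcodes pair by pair, and the pair 2A and 2B of rhesus monkey 2 shared 109 where 79.3 would come from a random draw of the barcode list. Cells were clustered without the 10 genes, and clusters were named from marker lists. The baboon cells comprised 17358 Sertoli-like, 4764 stroma-like, 376 endothelial-like, 303 germ-like and 152 pericyte-like cells and 117 unnamed cells led by C1QC and CD69. The rhesus cells comprised 15378 stroma-like, 8141 Sertoli-like, 753 endothelial-like, 624 germ-like, 553 Leydig-like, 99 peritubular myoid-like, 384 pericyte-like and 220 macrophage-like cells, and 326 were unnamed. No baboon cluster met the rule for Leydig or peritubular myoid cells. The 1281 cells of a baboon cluster led by INSL3 and DLK1 were counted as stroma-like, and the baboon pericyte-like cells were also led by ACTA2 and MYH11, which are smooth muscle genes. The endothelial-like classes held other cells as well. In the baboon, 92 of 376 endothelial-like cells were in sub-groups with low endothelial markers, led by AMH and INHA or by PTGDS and KRT19. In the rhesus monkey 76 of 753 were in a sub-group led by CD52, GZMB, NKG7 and CD3D, which are genes of lymphocytes, and 64 of these 76 cells came from animal 1, which gave only 142 endothelial-like cells in all. Similarly, 101 of the 303 baboon germ-like cells were in sub-groups with low germ cell markers and high Sertoli cell markers. Results of these classes are therefore also given without these cells. Endothelial markers made up 0.230% of the UMIs of the endothelial-like cells in rhesus monkey 1, with 3 of 15 markers at 0, against 0.568% in animal 2. In the pericyte-like cells of rhesus monkey 1, 4 of 9 pericyte markers were at 0 and the list made up 0.217% of the UMIs, against 0.971% in animal 2.

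The levels below are CPM, the UMIs of a gene divided by all UMIs of its class and scaled in the usual way, and each class was tested against all other cells of the same species with the quasi-likelihood test of edgeR on UMI sums per animal (n = 2 animals), with p-values adjusted over all genes. Leydig-like, macrophage-like and peritubular myoid-like cells are described without a test. The tests measure the spread between 2 animals of a species, and the clusters were made from other genes of the same cells. For every class but the endothelial-like one, the other cells include the endothelial-like cells, which held most UMIs of the receptors. A lower receptor in such a class is thus not a difference from each other class. Apart from the class tested, the other cells were mostly Sertoli-like in the baboon and mostly stroma-like in the rhesus monkey. A higher gene is likewise not a difference from each other class. Because 3′ UMI counts depend on the annotation of each gene and species, levels are compared across cell types and not between genes or species. Over all cells, the genes had between 74 UMIs (FLT4) and 3248 UMIs (VEGFB) in the baboon and between 52 UMIs (VEGFB) and 980 UMIs (PGF) in the rhesus monkey. Levels in the free RNA are CPM over near-empty barcodes. They do not give the share of a cell's UMIs that is free RNA, which was not measured.

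The upstream DNA is shown for KDR and TEK, receptors of blood vessel endothelium, and for FLT1 and PGF, a receptor and its ligand that were also called higher in germ-like cells of the baboon. The 250 bases before the annotated start of each gene were read from the rhesus genome (Mmul_10, RefSeq annotation), on the strand of the gene, with GGAA or its reverse complement TTCC, the core letters bound by ETS factors, in capitals. KDR starts at chr5:78510572 on the plus strand, and its window is chr5:78510322-78510571. FLT1, TEK and PGF are on the minus strand, with the windows chr17:7705051-7705300, chr15:56644904-56645153 and chr7:137072165-137072414.
KDR: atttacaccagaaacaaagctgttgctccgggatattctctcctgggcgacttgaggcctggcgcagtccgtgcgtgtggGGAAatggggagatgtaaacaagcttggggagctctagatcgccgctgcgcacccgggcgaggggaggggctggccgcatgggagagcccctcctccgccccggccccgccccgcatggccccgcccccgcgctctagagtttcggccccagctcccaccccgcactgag
FLT1: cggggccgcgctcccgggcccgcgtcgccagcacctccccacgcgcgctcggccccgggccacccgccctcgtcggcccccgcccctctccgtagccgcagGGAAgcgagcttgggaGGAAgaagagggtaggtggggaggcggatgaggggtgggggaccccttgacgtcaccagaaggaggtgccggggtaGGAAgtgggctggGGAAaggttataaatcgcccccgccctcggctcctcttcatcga
TEK: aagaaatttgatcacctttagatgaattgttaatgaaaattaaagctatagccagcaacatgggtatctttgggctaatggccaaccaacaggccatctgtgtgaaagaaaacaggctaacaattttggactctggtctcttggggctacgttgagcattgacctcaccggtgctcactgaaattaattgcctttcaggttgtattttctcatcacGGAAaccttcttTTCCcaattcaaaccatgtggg
PGF: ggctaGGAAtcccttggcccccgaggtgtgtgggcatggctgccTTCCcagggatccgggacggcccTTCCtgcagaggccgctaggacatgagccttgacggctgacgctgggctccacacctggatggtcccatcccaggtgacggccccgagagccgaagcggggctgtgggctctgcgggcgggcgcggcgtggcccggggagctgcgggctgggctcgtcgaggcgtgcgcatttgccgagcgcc
The KDR window held 1 such match, TEK 2, PGF 3 and FLT1 4. Among 21102 protein-coding genes with a whole window, 89.7% held at least 1 match, and the median was 3, so that the matches are a description of these windows and do not set them apart. The windows of KDR, FLT1 and PGF had a GC content of 67.2%, 72.0% and 72.0%, and that of TEK 41.2%.

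KDR, the principal receptor of VEGFA (baboon chr3:99233784-99280958 in Panubis1.0, rhesus chr5:78510572-78557969 in Mmul_10), was an endothelial gene in both species. Endothelial-like cells, a small minority of the cells, held 95.9% of its UMIs in the baboon and 95.8% in rhesus. Its level in endothelial-like cells was 118 CPM (85 UMIs) in baboon 1 and 184 CPM (172 UMIs) in baboon 2, with 128, 106 and 184 CPM in the libraries 1A, 1B and 2. No other baboon class was above 1.83 CPM, the value of germ-like cells of animal 1 (2 UMIs). The rhesus level was 166 CPM (69 UMIs) in animal 1 and 192 CPM (413 UMIs) in animal 2, and no other class was above 2.48 CPM, the value of Leydig-like cells of animal 2. The lowest endothelial value was thus above the highest of any other class in both species. KDR was higher in endothelial-like cells than in all other cells by 10.02 ± 0.42 on the log2 scale (SE) in the baboon (edgeR, adjusted p = 7.38e-05) and by 8.78 ± 0.63 in the rhesus monkey (adjusted p = 0.00428).

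FLT1, a receptor of VEGFA, VEGFB and PGF that binds VEGFA tightly but signals weakly (baboon chr15:7505932-7701596, rhesus chr17:7508603-7705050), was found in endothelial-like cells and, at a lower level, in germ-like cells. Its endothelial level was 125 CPM (90 UMIs) in baboon 1 and 143 CPM (134 UMIs) in baboon 2. The rhesus level was 86.3 CPM (36 UMIs) in animal 1 and 43.7 CPM (94 UMIs) in animal 2. It was higher in endothelial-like cells by 6.88 ± 0.32 (SE) in the baboon (edgeR, adjusted p = 7.99e-05) and by 6.92 ± 0.62 in the rhesus monkey (adjusted p = 0.00504), on the log2 scale. The order of the FLT1 levels in the baboon was endothelial-like (134 ± 13.2 CPM, SD, n = 2 animals), germ-like (27.4 ± 10.4), pericyte-like (8.27 ± 4.28, from 3 UMIs), stroma-like (0.677 ± 0.440) and Sertoli-like cells (0.119 ± 0.0777), and no neighbours in this order overlapped between animals. The stroma-like and Sertoli-like levels rested on 7 and 8 UMIs, and the free RNA held FLT1 at 2.42 CPM in library 1A and at 0 in 1B and 2. Below germ-like cells the order is therefore not firm. The rhesus order was endothelial-like (65.0 ± 30.2), then germ-like (10.1 ± 5.13), with at most 2.68 CPM in any other class.

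FLT4, the receptor of VEGFC (baboon chr5:173181544-173227408, rhesus chr6:178021132-178066939), had 85.1% of its 74 UMIs in baboon endothelial-like cells and 88.4% of its 302 UMIs in rhesus endothelial-like cells. The baboon values were 44.4 CPM (32 UMIs) and 33.2 CPM (31 UMIs), and no other class was above 1.83 CPM in an animal. The rhesus values were 36.0 CPM (15 UMIs) in animal 1 and 117 CPM (252 UMIs) in animal 2, with 119 and 114 CPM in the libraries 2A and 2B. FLT4 was higher in endothelial-like cells by 8.07 ± 0.53 (SE, log2) in the baboon (edgeR, adjusted p = 0.000202) and by 6.89 ± 0.84 in the rhesus monkey (adjusted p = 0.0132).

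TEK, the receptor of both angiopoietins (baboon chr13:55604215-55726815, rhesus chr15:56522803-56644903), had 88.5% of its UMIs in baboon and 85.1% in rhesus endothelial-like cells. The baboon values were 84.5 CPM (61 UMIs) and 117 CPM (109 UMIs), and TEK was higher in these cells by 8.47 ± 0.37 (SE, log2; edgeR, adjusted p = 7.38e-05). In baboon germ-like cells no TEK UMI was found in 303 cells, which allows up to 1.10 CPM at 3 UMIs, at least 2.29-fold lower than in the other cells (edgeR, adjusted p = 0.0353). This call was lost without library 1B (adjusted p = 0.0541) and with DESeq2 (adjusted p = 0.0511). The other cells here include the endothelial-like cells. Stroma-like and Sertoli-like cells had TEK at 0.978 and 0.226 CPM, both below 1.10 CPM, so that germ-like cells were not shown to be lower than these. The TEK level of rhesus endothelial-like cells was 16.8 CPM (7 UMIs) in animal 1 and 169 CPM (363 UMIs) in animal 2, where the libraries 2A and 2B gave 167 and 171 CPM. The difference between endothelial-like and other cells was 6.31 ± 1.11 (SE, log2; adjusted p = 0.0333), and the adjusted p was 0.0502 without library 2B.

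The difference in TEK between the rhesus animals was also present within 1 sub-group, the 309 cells led by CD74 and RGS5, where TEK was at 29.0 CPM (7 UMIs) in animal 1 and 166 CPM (206 UMIs) in animal 2. Without the sub-group led by lymphocyte genes, 78 endothelial-like cells of animal 1 and 599 of animal 2 remained, and TEK was at 26.2 and 168 CPM, FLT4 at 56.0 and 118 CPM, KDR at 258 and 192 CPM and FLT1 at 134 and 43.8 CPM. TEK and FLT4 were thus the lower and KDR and FLT1 the higher in animal 1. There is 1 animal on each side, so these differences have no test, and animal, age and library cannot be told apart.

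Together, 6 of the 10 genes passed the test in baboon endothelial-like cells, all higher, where 11.6% of all genes tested were called. These were the 4 receptors with PGF and ANGPT2. In rhesus endothelial-like cells 4 of the 9 genes tested were called, all receptors and all higher, with 3.71% of all genes called. Leaving out the sub-groups with low endothelial markers, a choice made after seeing the data, left the counts at 6 and 4. In the baboon the receptor levels of the remaining 151 and 133 cells of the 2 animals were 130 and 224 CPM for KDR, 137 and 171 CPM for FLT1, 48.8 and 38.5 CPM for FLT4 and 93.1 and 141 CPM for TEK. VEGFA, VEGFB, VEGFC and ANGPT1 did not pass the test in endothelial-like cells of either species in which they were tested, and VEGFB was not tested in the rhesus monkey because its counts were too low.

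**Figure D1:**
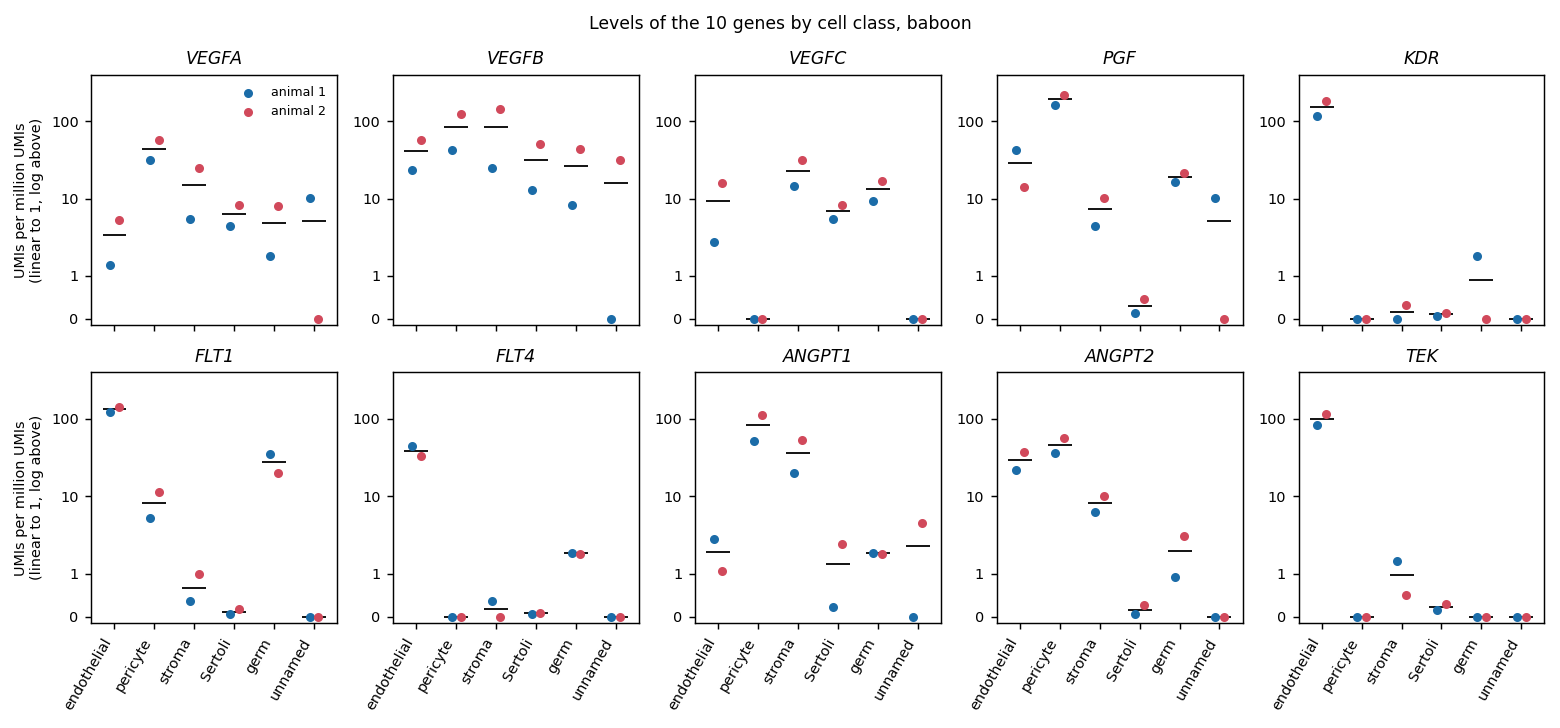
Level of each of the 10 genes (CPM, axis linear up to 1 and logarithmic above) in 6 cell classes of the baboon. Points are the 2 animals and bars their mean; KDR, FLT1, FLT4 and TEK are highest in endothelial-like cells, FLT1 is second highest in germ-like cells at 34.8 and 20.1 CPM, and PGF is highest in pericyte-like cells at 162 and 220 CPM.

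**Figure D2:**
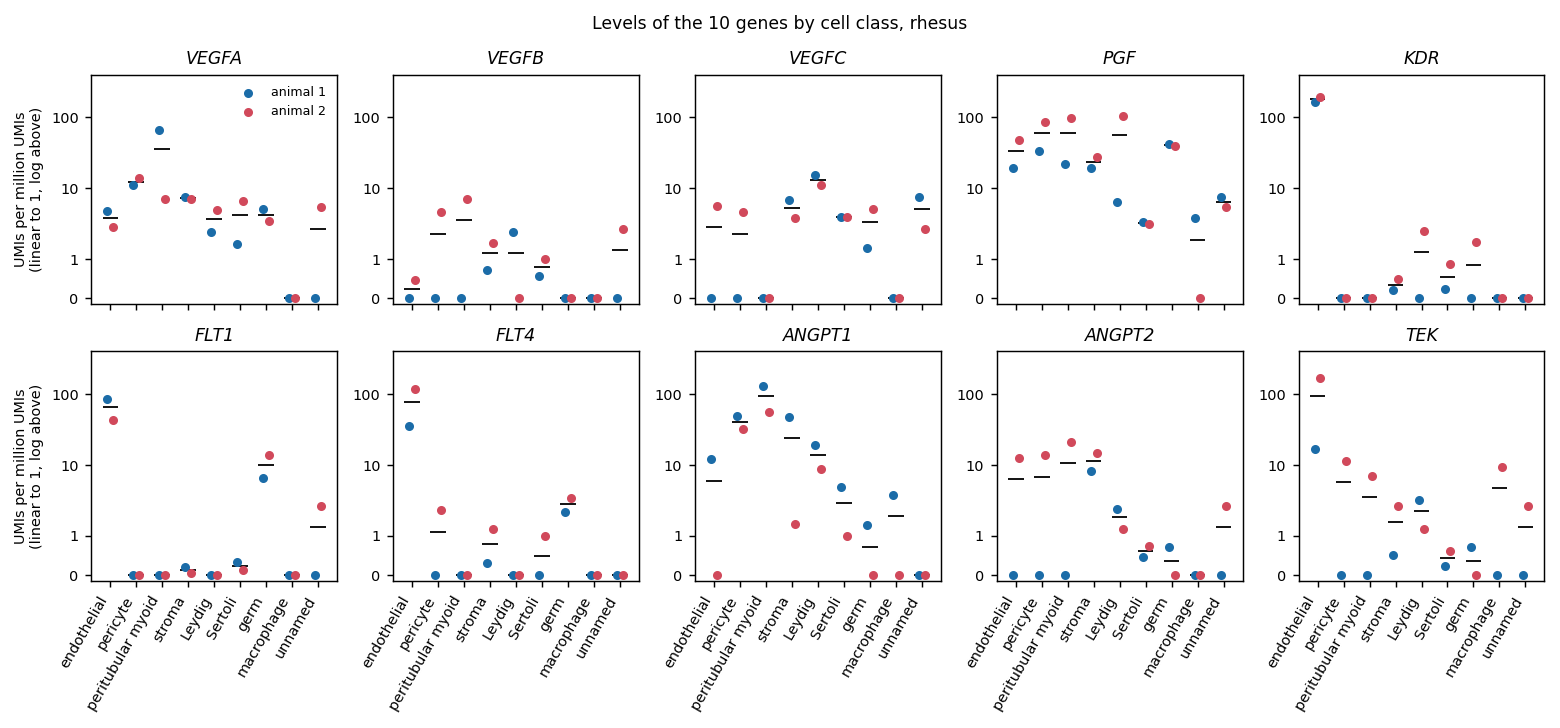
Level of each of the 10 genes (CPM, axis linear up to 1 and logarithmic above) in 9 cell classes of the rhesus monkey. Points are the 2 animals and bars their mean; the 4 receptors are highest in endothelial-like cells, and TEK there is at 16.8 CPM in animal 1 and 169 CPM in animal 2.

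Within the endothelial-like cells, the 4 receptors were not tied to one sub-group. In the baboon a sub-group of 188 cells was led by CCL21, EDN1, MMRN1 and SEMA3G and held lymphatic markers at 1306 CPM and arterial markers at 598 CPM, and a sub-group of 96 cells was led by RGS5, CXCL10 and SELE. KDR was at 177 CPM in the former and 183 CPM in the latter, FLT1 at 130 and 173, FLT4 at 46.8 and 40.8 and TEK at 111 and 124. FLT4 was thus found in both sub-groups. The lymphatic markers of the first were mostly CCL21 (583 of 753 UMIs), at 1011 CPM against 7.21 CPM in the second. The second also had LYVE1 at 72.1 CPM and PROX1 at 18.0 CPM, against 142 and 34.7 CPM in the first. Lymphatic cells were not separated, so these sub-groups cannot tell whether FLT4 lay outside them. The sub-group led by PTGDS and KRT19 (23 cells) had no UMI of any of the 4 receptors. PGF differed most, with 5.20 CPM (3 UMIs) in the first and 46.8 CPM (39 UMIs) in the second sub-group. In the second, PGF was at 63.0 CPM in animal 1 and 28.4 CPM in animal 2. The pericyte markers moved with it, at 251 and 1702 CPM, and RGS5 and HIGD1B, markers of pericytes, were among the leading genes of the second sub-group. The part of pericyte RNA in the endothelial PGF was not tested.

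The rhesus endothelial-like sub-groups were led by CD74 and RGS5 (309 cells), by ACKR1, a gene of venules, with MGP (215 cells), and by SOX17 and GJA4, genes of arteries (153 cells). KDR was at 201, 96.6 and 273 CPM in these, FLT1 at 42.6, 43.2 and 94.97, FLT4 at 128, 94.1 and 75.6 and TEK at 144, 170 and 163. The sub-group led by SOX17 and GJA4 had the highest pooled level of KDR and FLT1 and the lowest of FLT4. Arterial markers were at 386 CPM there, against 81.8 and 76.3 CPM in the others, and 147 of its 153 cells came from animal 2. FLT1 in animal 2 alone was at 21.8, 44.9 and 97.1 CPM in the 3 sub-groups. PGF was at 65.6 CPM in the sub-group led by CD74 and RGS5 and at 20.3 and 7.75 CPM in the others, and pericyte markers were at 800, 412 and 372 CPM. These sub-groups were found from the same cells, and their levels are a description.

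**Figure D3:**
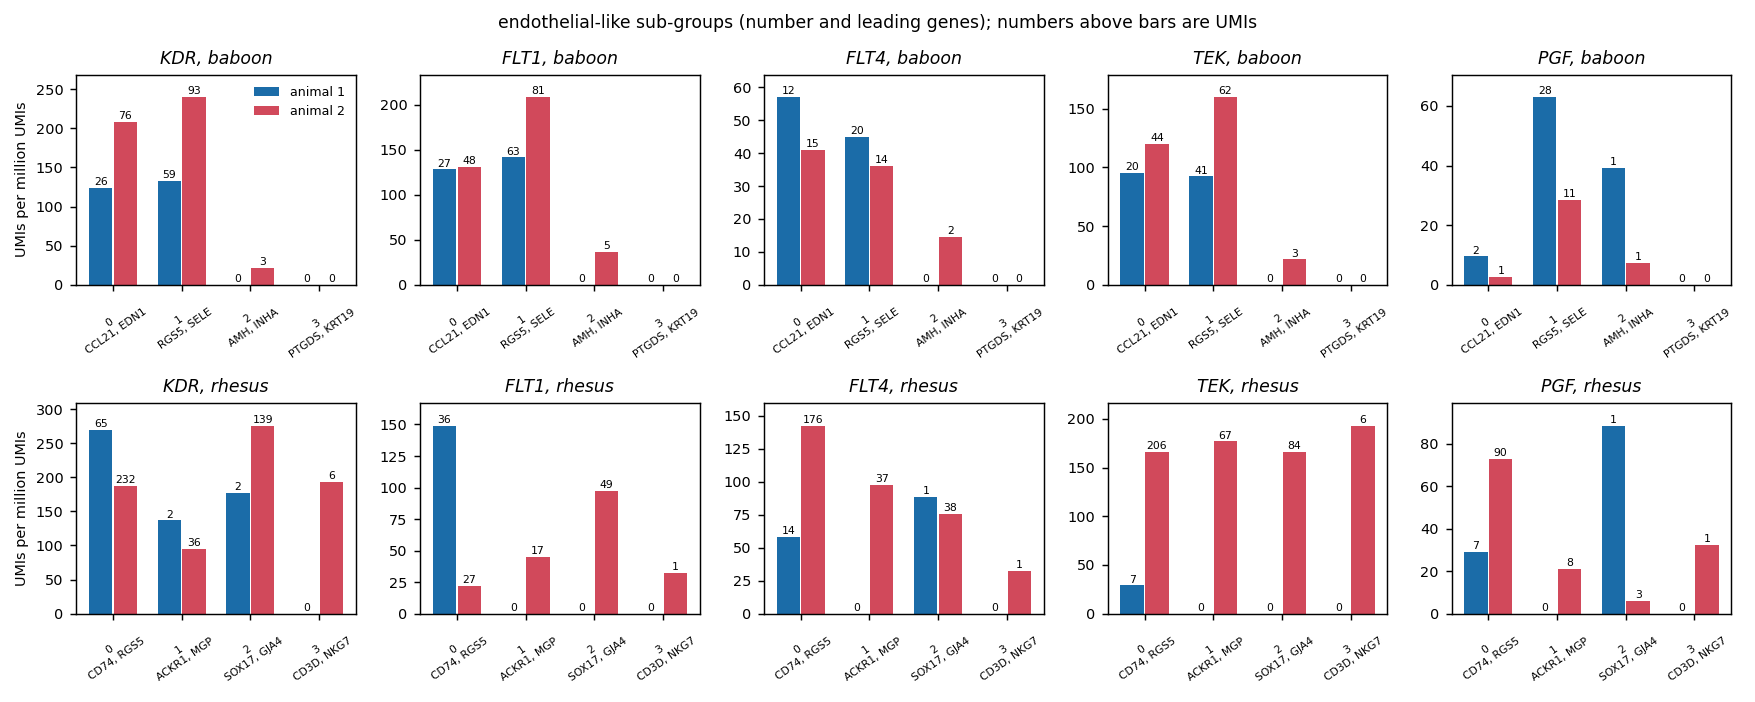
Levels of KDR, FLT1, FLT4, TEK and PGF (CPM) in sub-groups of endothelial-like cells, with a bar for each animal and the number of UMIs above it. The receptors are present in the first 2 baboon and the first 3 rhesus sub-groups and at or near 0 in the baboon sub-group led by PTGDS and KRT19, and among the baboon sub-groups PGF is highest in that led by RGS5 and SELE, at 63.0 CPM in animal 1.

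PGF, the ligand that binds FLT1 and not KDR (baboon chr7:31716577-31730200, rhesus chr7:137058583-137072164), was found in several classes of both species, germ-like cells among them. In the baboon it was highest in pericyte-like cells, at 162 CPM (31 UMIs) in animal 1 and 220 CPM (39 UMIs) in animal 2, and higher there than in the other cells by 6.29 ± 0.39 (SE, log2; edgeR, adjusted p = 0.000873). Endothelial-like cells followed with 43.0 and 13.9 CPM (3.44 ± 0.67 higher, adjusted p = 0.0186), then germ-like cells with 16.5 and 21.3 CPM and stroma-like cells with 4.39 and 10.0 CPM. Endothelial-like and germ-like cells overlapped in this order, and germ-like and stroma-like cells did not. Sertoli-like cells held 0.129 and 0.464 CPM. Among the rhesus cells PGF was broader and 59.1% of its 980 UMIs were in stroma-like cells, at 19.4 and 27.5 CPM. Peritubular myoid-like cells had 21.7 CPM (1 UMI) and 98.9 CPM (14 UMIs), pericyte-like cells 33.2 and 86.9, germ-like cells 41.9 and 39.6, endothelial-like cells 19.2 and 47.4 and Sertoli-like cells 3.35 and 3.13 CPM, and from the first of these down to stroma-like cells every class overlapped with its neighbour. The peritubular myoid-like level rested on library 2A (163 CPM from 12 UMIs), and library 2B had 29.5 CPM (2 UMIs). Leydig-like cells had 6.44 CPM (8 UMIs) in animal 1 and 105 CPM (85 UMIs) in animal 2, with 107 and 103 CPM in the libraries 2A and 2B. Animal 1 had a single library, and animal, age and library cannot be told apart.

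The germ-like cells carried PGF and FLT1, a ligand and its receptor, in both species. In the baboon PGF was higher in germ-like cells than in all other cells by 2.34 ± 0.48 (SE, log2; edgeR, adjusted p = 0.0157) and FLT1 by 2.62 ± 0.45 (adjusted p = 0.00938). Most of these other cells were Sertoli-like, with PGF at 0.129 and 0.464 CPM. Germ-like PGF overlapped with that of endothelial-like cells (43.0 and 13.9 CPM) and was below that of pericyte-like cells (162 and 220 CPM). FLT1 had 38 UMIs in germ-like cells of baboon 1 (34.8 CPM) and 33 UMIs in those of baboon 2 (20.1 CPM), with 35.1 and 34.2 CPM in the libraries 1A and 1B. PGF had 18 UMIs (16.5 CPM) and 35 UMIs (21.3 CPM). All of these were above the Sertoli-like cells, which share the tubule with the germ cells, where FLT1 was at 0.0643 and 0.174 CPM. FLT1 was found in 16.8% of the 303 baboon germ-like cells (exact 95% Clopper-Pearson interval 12.8% to 21.5%) against 0.0461% of Sertoli-like cells. PGF was found in 13.5% (9.89% to 17.9%) of germ-like and 0.115% of Sertoli-like cells. The median depth was 6584 UMIs in germ-like and 2222.5 UMIs in Sertoli-like cells, so cells were also thinned to 1000 UMIs. FLT1 was then found in 2.64% (7 of 265) of germ-like cells and in 0 of 15683 Sertoli-like cells (upper limit of the exact interval 0.0235%), and PGF in 1.89% and 0.0446%. In the free RNA of near-empty barcodes, FLT1 was at 1.90 CPM and PGF at 3.32 CPM. Intervals and limits cover counting error only.

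Rhesus FLT1 had 9 UMIs (6.50 CPM) in germ-like cells of animal 1 and 8 UMIs (13.8 CPM) in those of animal 2, and the Sertoli-like cells were at 0.347 and 0.125 CPM. FLT1 was found in 2.24% (1.23% to 3.74%) of the 624 germ-like cells against 0.0491% of Sertoli-like cells, whose median depths were 1374 and 1645 UMIs, and after thinning in 1.79% and 0.0571%. It was at 0.341 CPM in the free RNA. PGF had 58 UMIs (41.9 CPM) and 23 UMIs (39.6 CPM) in germ-like cells and was found in 8.01% (6.01% to 10.4%) of them against 0.639% of the Sertoli-like cells, and after thinning in 3.85% and 0.328%, with 12.3 CPM in the free RNA. The libraries 2A and 2B had few germ-like cells (42 and 47), and gave PGF at 18.1 and 68.1 CPM. By library, the free RNA held PGF at 8.60 (1), 15.1 (2A) and 17.8 CPM (2B). The germ-like level of library 2A was thus close to that of its free RNA, and the level of animal 2 rested mostly on library 2B. The part of free RNA in the germ-like PGF was not tested. Against all other cells, the difference was 0.89 ± 0.39 (SE, log2) for PGF (edgeR, adjusted p = 0.123) and 1.47 ± 0.68 for FLT1 (adjusted p = 0.141), so that neither passed the test in the rhesus monkey. The other cells there were mostly stroma-like and held PGF at 11.7 and 25.0 CPM. The reference of this test thus differs from that in the baboon. Without library 2A PGF passed (adjusted p = 0.0492). With the animal as a block, PGF passed at 0.98 ± 0.34 (adjusted p = 0.0249) and FLT1 did not (adjusted p = 0.0877).

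Among the sub-groups of germ-like cells, PGF was uneven. In the rhesus monkey it was highest in the 88 cells led by C19orf84, TH and SH2B2, at 88.7 CPM (36 UMIs) in animal 1 and 143 CPM (19 UMIs) in animal 2. The 189 cells led by ASB11, HEY1 and DUSP4 had 22.0 CPM (13 UMIs) and 10.5 CPM (4 UMIs), and no other sub-group was above 32.5 CPM in an animal. The values of the C19orf84 and TH sub-group thus did not overlap with those of any other, and 55 of the 81 germ-like PGF UMIs were in it. Pericyte markers were at 228 CPM in this sub-group and at 75.0 CPM in that led by ASB11, and their part in the PGF level was not tested. In the baboon, the 60 cells led by the same kind of genes, C20H19orf84, PIWIL4 (a piRNA pathway gene of undifferentiated spermatogonia) and TH, had PGF at 14.7 CPM (7 UMIs) in animal 1 and 51.9 CPM (23 UMIs) in animal 2. The 60 cells led by ASB9, L1TD1 and NANOS3 had 14.7 and 10.1 CPM (6 and 5 UMIs). The difference between these baboon sub-groups therefore came from animal 2. Another 82 baboon cells, led by ULK4 and CTNNB1, had 36.9 and 21.0 CPM (4 and 5 UMIs), so that PGF was not limited to a single sub-group.

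FLT1 in the baboon germ-like cells was found in the sub-groups with high germ cell markers. It was at 46.2 and 33.9 CPM in the sub-group with PIWIL4 and TH (22 and 15 UMIs), at 34.2 and 28.3 CPM in that with NANOS3 and L1TD1 (14 UMIs in each animal), and at 18.4 and 16.8 CPM in 82 cells led by ULK4 and CTNNB1 (2 and 4 UMIs). The 2 sub-groups with low germ cell markers, 52 cells led by LGALS1 and UBE2C and 49 led by APOA1 and AMH, had 0 FLT1 UMIs. Germ cell markers were at 55.6 and 706 CPM in these and Sertoli cell markers at 7104 and 6636 CPM, and FLT1 was found where the germ cell markers were high. The floor of 3 UMIs was 6.67 CPM in the former but 25.2 CPM in the latter, too high to show a level like that of the other sub-groups. PGF had 0 UMIs in the former and 3 in the latter. The endothelial markers moved with FLT1 across these sub-groups, at 164 to 198 CPM in the 3 with FLT1 and at 4.44 and 67.3 CPM in the 2 without. They were at 7772 and 7218 CPM in the first 2 endothelial-like sub-groups, KDR had 2 UMIs and TEK none among the germ-like cells, and the part of endothelial RNA in the germ-like FLT1 was not tested. Without the 101 cells of low germ cell markers, FLT1 was at 38.3 and 28.1 CPM and in 25.2% of the 202 cells, and PGF at 17.1 and 28.1 CPM and in 18.8%, and both stayed above the threshold (differences of 2.85 and 2.52 on the log2 scale, adjusted p = 0.00289 and 0.00877). The rhesus germ-like cells included 198 cells led by GSTA3, INSL3 and AMH with a median of 708 UMIs, 21.2% of them marked as doublets, where Sertoli cell markers were at 3383 CPM, Leydig cell markers at 993 CPM and germ cell markers at 833 CPM. In the 149 cells led by PLK1 the Sertoli cell markers were also the higher, at 1782 against 1406 CPM. Without these sub-groups, a choice made after seeing the data, 277 rhesus germ-like cells remained, with PGF at 49.1 and 44.7 CPM and FLT1 at 8.02 and 13.6 CPM. Neither passed the test (differences of 1.03 and 1.53 on the log2 scale, edgeR, adjusted p = 0.0845 and 0.127), and the KDR call was lost (adjusted p = 0.0515).

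**Figure D4:**
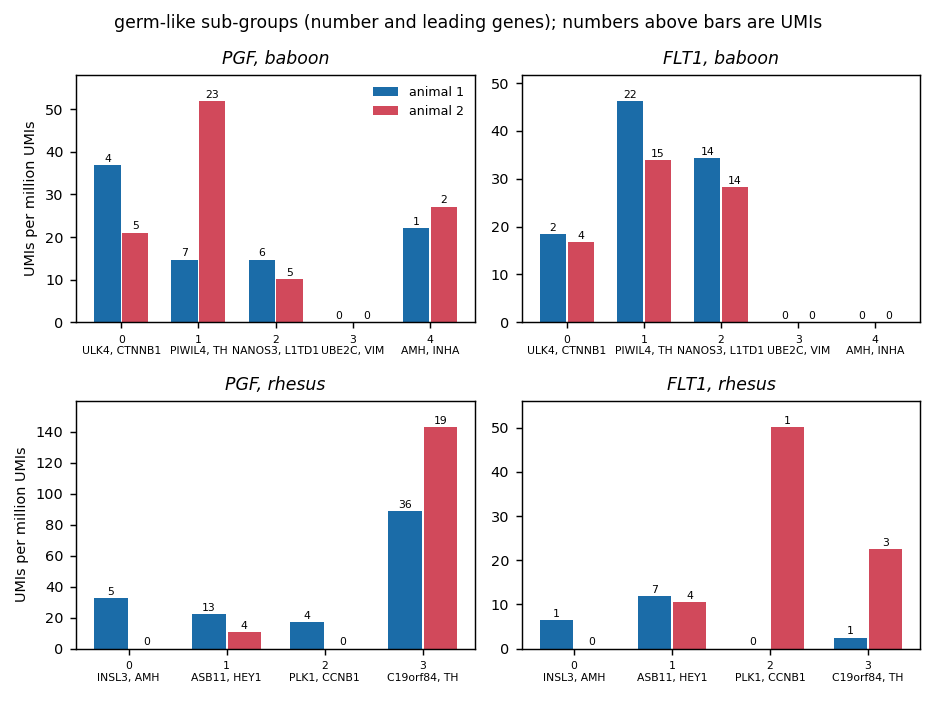
Levels of PGF and FLT1 (CPM) in sub-groups of germ-like cells in the baboon (top) and the rhesus monkey (bottom), with a bar for each animal and the number of UMIs above it. PGF is highest in the rhesus sub-group led by C19orf84 and TH (88.7 and 143 CPM), FLT1 is in the 3 baboon sub-groups with germ cell markers, and the single tall FLT1 bar of the rhesus sub-group led by PLK1 is 1 UMI.

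In all, 3 of the 10 genes passed the test in baboon germ-like cells (PGF and FLT1 higher, TEK lower), where 26.5% of all genes tested were called. With the animal as a block 6 passed, against 47.3% of all genes, the added ones being lower, ANGPT1 (-2.18 ± 0.77, SE, log2), VEGFB (-1.07 ± 0.33) and KDR, whose 2 UMIs gave a ratio of 0.211 to the other cells (95% counting interval 0.0254 to 0.768). In the rhesus germ-like cells 2 of the 8 genes tested passed, both lower, with 29.4% of all genes called. These were KDR and ANGPT2, each with 1 UMI. Their ratio to the other cells was 0.0475 (95% counting interval 0.0012 to 0.266) for KDR and 0.0698 (0.00176 to 0.391) for ANGPT2. The other cells include the endothelial-like cells, which held 95.8% of the KDR UMIs. KDR was at 0.860 CPM in rhesus germ-like cells, not below Sertoli-like (0.554 CPM) or stroma-like cells (0.350 CPM). With the block 4 passed, against 42.9% of all genes, the added ones being PGF and ANGPT1, which was lower at 2 UMIs and a ratio of 0.0794 (0.0096 to 0.288). The shares of called genes without the block were near these background shares.

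VEGFA, the main angiogenic and permeability factor (baboon chr6:42196616-42213162, rhesus chr4:125542856-125559420), was spread over many classes. In the baboon it was highest in pericyte-like cells, at 31.4 CPM (6 UMIs) and 56.5 CPM (10 UMIs), followed by stroma-like cells at 5.48 and 24.7 CPM and Sertoli-like cells at 4.47 and 8.13 CPM, and stroma-like and Sertoli-like cells overlapped. Sertoli-like cells were so numerous that they held 67.4% of the 622 UMIs. The free RNA held VEGFA at 3.63, 5.54 and 10.8 CPM in the libraries 1A, 1B and 2, from 6, 1 and 3 UMIs. The Sertoli-like and stroma-like levels of animal 1 lay between the free RNA levels of its libraries. The Sertoli-like level of animal 2 was below that of library 2. So few UMIs place the free RNA level only roughly, and its part in the classes was not tested. Germ-like cells had 1.83 and 7.90 CPM (15 UMIs in all), overlapping with Sertoli-like cells. The pericyte-like difference was 2.54 ± 0.62 (SE, log2) and did not pass the test (edgeR, adjusted p = 0.0809), but it did with the animal as a block (2.56 ± 0.67, adjusted p = 0.00172). Rhesus stroma-like cells held 62.2% of the 278 UMIs, at 7.55 and 7.04 CPM, and pericyte-like cells were at 11.05 and 13.72 CPM (8 UMIs in all). Sertoli-like cells of animal 1 had 1.62 CPM and those of animal 2 had 6.64 CPM, and germ-like cells had 5.06 and 3.44 CPM (9 UMIs in all). The free RNA held VEGFA at 2.87, 9.05 and 5.70 CPM in the libraries 1, 2A and 2B. The Sertoli-like level of animal 1 was below that of its free RNA. The Sertoli-like and stroma-like levels of animal 2 lay between the free RNA levels of its libraries. The part of free RNA in these levels was not tested. VEGFA passed in none of the 5 rhesus classes tested. The 4 UMIs of peritubular myoid-like cells (65.2 and 7.07 CPM) are too few to place this class.

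VEGFB, a ligand of FLT1 (baboon chr12:113663920-113667842, rhesus chr14:10305178-10309086), had UMIs in all named baboon classes, with higher levels in baboon 2. It was at 24.9 CPM in stroma-like cells of baboon 1 and 142 CPM in those of baboon 2, at 12.9 and 50.1 CPM in Sertoli-like cells, at 8.23 and 43.8 CPM in germ-like cells at 23.6 and 57.8 CPM in endothelial-like cells and at 41.9 and 124 CPM in pericyte-like cells. In the free RNA it was at 15.1, 16.6 and 75.8 CPM in the libraries 1A, 1B and 2. The Sertoli-like and germ-like cells of both animals and the endothelial-like cells of animal 2 were not above these levels. Stroma-like and pericyte-like cells were above them in both animals. The part of free RNA in the VEGFB of any class was not tested. All classes overlapped with their neighbours, and VEGFB passed the test in none. The libraries 1A and 1B of animal 1 agreed at 14.03 and 10.97 CPM in Sertoli-like cells. The animal, its age and the version of the chemistry cannot be told apart. Within each animal stroma-like cells were above Sertoli-like cells, and with the animal as a block VEGFB passed in stroma-like cells (1.43 ± 0.19 higher, SE, log2; edgeR, adjusted p = 0.00165). Rhesus VEGFB had 52 UMIs in all 26478 cells and did not allow an order of classes.

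VEGFC, the ligand of FLT4 and a lymphangiogenic factor (baboon chr3:12895590-13014199, rhesus chr5:174015299-174135967), was highest in stroma-like cells of the baboon, at 14.6 CPM (40 UMIs) and 31.3 CPM (190 UMIs). Germ-like cells followed at 9.15 and 17.0 CPM, endothelial-like cells at 2.77 and 16.1 CPM and Sertoli-like cells at 5.44 and 8.19 CPM, each overlapping with the class above. The free RNA held VEGFC at 5.45, 5.54 and 3.61 CPM in the libraries 1A, 1B and 2. No VEGFC UMI was found in 152 pericyte-like cells, which allows up to 8.16 CPM. Against the other cells, stroma-like cells differed by 1.88 ± 0.45 (SE, log2; edgeR, adjusted p = 0.0681), and with the animal as a block by 1.84 ± 0.22 (adjusted p = 0.00108). Rhesus VEGFC was highest in Leydig-like cells, at 15.3 CPM (19 UMIs) and 11.1 CPM (9 UMIs), above stroma-like cells at 6.83 and 3.802 CPM. In animal 2 this rested on library 2B (17.2 CPM, 7 UMIs), since library 2A had 4.99 CPM (2 UMIs), which overlaps with the stroma-like cells. Leydig-like cells were not tested.

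ANGPT1, the agonist of TEK (baboon chr8:102563810-102862059, rhesus chr8:107466829-107721255), was found in pericyte-like and stroma-like cells and, in the rhesus monkey, also in peritubular myoid-like and Leydig-like cells. In the baboon pericyte-like cells had 52.4 CPM (10 UMIs) and 113 CPM (20 UMIs) and stroma-like cells 20.1 CPM (55 UMIs) and 53.0 CPM (322 UMIs), overlapping by little, and no other class was above 4.56 CPM. It was higher in stroma-like cells by 4.56 ± 0.87 (SE, log2; edgeR, adjusted p = 0.0445), while the pericyte-like difference of 3.86 ± 0.82 was just short (adjusted p = 0.0524) and passed without library 1A or 1B (adjusted p = 0.00643 and 0.0202) and with the animal as a block (4.03 ± 0.60, adjusted p = 1.1e-09). In the rhesus monkey, peritubular myoid-like cells had 130 and 56.5 CPM (6 and 8 UMIs) and pericyte-like cells 49.7 and 32.0 CPM (9 and 14 UMIs). In the pericyte-like cells of animal 1 stroma markers made up 0.824% of the UMIs, above their pericyte markers, against 0.312% in animal 2, and the part of stroma RNA in their ANGPT1 was not tested. The stroma-like cells of the rhesus animals stood far apart, with 47.2 CPM (456 UMIs) in animal 1 and 1.48 CPM (21 UMIs) in animal 2, where the libraries 2A and 2B had 1.07 and 1.92 CPM. The free RNA was at 6.69 CPM in animal 1 and at 1.51 and 1.43 CPM in the libraries 2A and 2B. The stroma-like level of animal 2 lay between the latter values, and the part of free RNA in it was not tested. Leydig-like cells, which were not tested, had 19.3 and 8.67 CPM (31 UMIs in all), above the free RNA in both animals. ANGPT1 passed in none of the 5 rhesus classes tested (stroma-like 2.41 ± 1.49, adjusted p = 0.380), but with the animal as a block it was higher in pericyte-like cells and lower in Sertoli-like and germ-like cells. Sertoli-like cells also had more in animal 1, at 4.86 against 1.00 CPM, both below the free RNA. The direction was opposite to that of its receptor TEK, which was lower in endothelial-like cells of animal 1.

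ANGPT2, the context-dependent antagonist of ANGPT1 (baboon chr8:6407935-6471729, rhesus chr8:7237749-7301319), was shared by 3 baboon classes. Pericyte-like cells had 36.7 CPM (7 UMIs) and 56.5 CPM (10 UMIs), endothelial-like cells 22.2 CPM (16 UMIs) and 37.5 CPM (35 UMIs) and stroma-like cells 6.22 CPM (17 UMIs) and 10.2 CPM (62 UMIs), of which the first pair overlapped. In endothelial-like cells of baboon 1 library 1A had 7.85 CPM (3 UMIs) and library 1B 38.3 CPM (13 UMIs), so that without 1B the level of animal 1 was within that of stroma-like cells. The free RNA held ANGPT2 at 22.2 CPM (4 UMIs) in library 1B and at 0 in the libraries 1A and 2, and its part in the levels of 1B was not tested. In the 3 classes, in the order given, ANGPT2 was higher than in the other cells by 4.67 ± 0.72 (SE, log2; edgeR, adjusted p = 0.0167), 4.45 ± 0.59 (adjusted p = 0.00404) and 2.98 ± 0.55 (adjusted p = 0.0424), and the last call was lost without library 1B (adjusted p = 0.0576). Within baboon endothelial-like cells it was at 46.8 CPM in the sub-group led by CCL21 and at 20.4 CPM in that led by RGS5. In the rhesus monkey 84.8% of the 343 UMIs were in stroma-like cells, at 8.27 CPM (80 UMIs) and 14.9 CPM (211 UMIs). Endothelial-like, pericyte-like and peritubular myoid-like cells had 12.5, 13.7 and 21.2 CPM in animal 2 and 0 UMIs in animal 1, where 3 UMIs are 7.20, 16.6 and 65.2 CPM. The 0 UMIs of pericyte-like and peritubular myoid-like cells thus show no difference between the animals. The rhesus stroma-like difference was 2.72 ± 0.76 (adjusted p = 0.106), and 2.90 ± 0.45 with the block (adjusted p = 0.0140).

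By class, 2 of the 10 genes passed in baboon pericyte-like cells (PGF and ANGPT2, both higher) with 4.14% of all genes called, and 2 in baboon stroma-like cells (ANGPT1 and ANGPT2, both higher) with 9.43%. With the animal as a block these counts were 5 and 8, against 13.5% and 39.3% of all genes. The block added VEGFA, VEGFB (1.14 ± 0.37, SE, log2) and ANGPT1 in pericyte-like cells, all higher. In stroma-like cells it added VEGFA (1.31 ± 0.35), VEGFB, VEGFC and PGF (1.61 ± 0.40), all higher, and FLT1 (-2.34 ± 0.53) and KDR, both lower, KDR with 2 UMIs and a ratio of 0.0603 (95% counting interval 0.00726 to 0.22). In rhesus pericyte-like cells edgeR called none of the 10, with 2 at an unadjusted p under 0.05, and called 0.0247% of all genes, and DESeq2 called none of the 8 genes for which it gave an adjusted p. With the block, where 4.25% of all genes were called, PGF (1.67 ± 0.41, SE, log2; adjusted p = 0.00215) and ANGPT1 (2.48 ± 0.53, adjusted p = 0.000188) were higher there. In rhesus stroma-like cells 1 gene passed, with 2.56% of all genes called. This was FLT1, with 3 UMIs against 152 in the other cells, at a ratio of 0.0207 (95% counting interval 0.00422 to 0.0616), and the call was lost without library 2A (adjusted p = 0.0585). With the block 5 passed, against 24.9% of all genes, FLT1 with KDR (-5.49 ± 0.45), FLT4 (-3.34 ± 0.54) and TEK (-2.63 ± 0.59), all lower, and ANGPT2, which was higher.

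Sertoli-like cells were poor in the receptors and in PGF and ANGPT2. The mean levels of the receptors were between 0.0757 and 0.226 CPM in the baboon and 0.236 and 0.554 CPM in the rhesus monkey. Stroma-like cells were low in the receptors too, between 0.165 and 0.978 CPM and between 0.139 and 1.60 CPM. The other cells in the tests below include the endothelial-like cells. In the baboon 6 of the 10 genes passed, all lower, with 24.1% of all genes called. Before the change to how clusters were named, with 2 of these clusters still without a name, edgeR called 0 of the 10 and 0 of 16439 genes, with 6 and 2204 at an unadjusted p under 0.05. On the log2 scale the level of KDR differed by -7.19 ± 0.53 (SE), and the difference was -7.32 ± 0.58 for FLT1, -5.86 ± 0.69 for FLT4, -5.61 ± 0.51 for TEK, -5.68 ± 0.68 for PGF and -5.76 ± 0.77 for ANGPT2, against the other cells (edgeR, adjusted p between 0.0136 and 0.0154). Of the 10 genes 4 passed in rhesus Sertoli-like cells, all lower, with 9.54% of all genes called. The difference was -4.69 ± 0.94 for KDR, -4.16 ± 0.80 for FLT1, -3.07 ± 0.43 for PGF and -4.02 ± 0.62 for ANGPT2 (adjusted p between 0.0213 and 0.0399). The FLT1 call was lost without library 2A (adjusted p = 0.0564). VEGFA, VEGFB, VEGFC and ANGPT1 did not pass in Sertoli-like cells of either species, but with the block 9 genes were called in the baboon, against 48.8% of all genes, and 7 in the rhesus monkey, against 31.3%. ANGPT1 was then lower in both species (differences of -4.39 ± 0.44 and -2.41 ± 0.39), VEGFB (-0.78 ± 0.17) and VEGFC (-1.17 ± 0.26) in the baboon and FLT4 (-4.25 ± 0.61) and TEK (-4.61 ± 0.72) in the rhesus monkey.

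**Figure D5:**
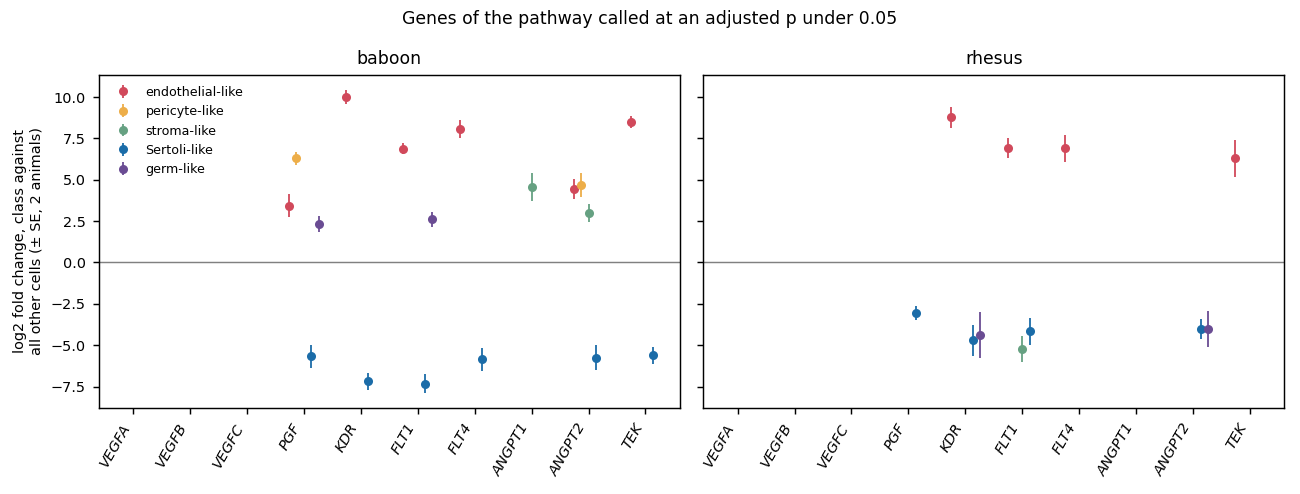
Log2 fold change (± SE, 2 animals, edgeR) of the genes that passed the test in each class against all other cells, for the baboon (left) and the rhesus monkey (right); TEK in baboon germ-like cells, at 0 UMIs, is left out. The 4 receptors lie between 6.88 and 10.02 in baboon and between 6.31 and 8.78 in rhesus endothelial-like cells, and VEGFA, VEGFB and VEGFC have no point.

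The partners of the pathway were counted from 5 lists, which were chosen with earlier results of these data known. In endothelial-like cells 11.6% (baboon) and 3.71% (rhesus) of all genes were called. Of the co-receptors and partners, 4 of the 8 genes tested were higher in endothelial-like cells and none lower, in either species. TIE1, the co-receptor of TEK, was higher by 10.20 ± 0.37 (SE, log2) in the baboon and 7.57 ± 0.70 in the rhesus cells, and PTPRB, the phosphatase that restrains TEK, by 9.51 ± 0.57 and 7.02 ± 0.89 (edgeR, adjusted p between 7.38e-05 and 0.0152). HSPG2, a basement membrane proteoglycan, was higher in both, NRP1 in the baboon (3.21 ± 0.80) and NRP2 in the rhesus monkey (3.33 ± 0.63). The median of this list was 2.65 (baboon) and 2.27 (rhesus), against -0.18 and -0.08 over all genes. It holds partners of endothelial receptors, such as TIE1 and PTPRB, so that higher levels in endothelial-like cells come in part with its choice. Of the genes known to respond to VEGF in endothelium, 6 of 10 in the baboon and 5 of 7 in the rhesus monkey were higher in endothelial-like cells and none lower, among them DLL4, the NOTCH ligand of tip cells (10.03 ± 0.42 and 6.71 ± 0.71), NOS3, the endothelial nitric oxide synthase (6.75 ± 0.47 and 4.76 ± 0.66) and HLX (6.86 ± 0.55 and 5.49 ± 0.45). The medians were 5.17 and 3.98. This list was made of endothelial genes, so that higher levels in endothelial-like cells come with its choice and do not measure a response to VEGF.

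Of the signal transducers 3 of 10 were higher in baboon endothelial-like cells (SHB, PLCG1 and FYN, by 2.81 ± 0.44, 1.71 ± 0.28 and 1.62 ± 0.28) and 2 of 7 in rhesus (RASIP1 by 6.41 ± 0.70 and FYN by 2.34 ± 0.40), with none lower. The shares over all genes in these cells were 11.6% (baboon) and 3.71% (rhesus). Of the hypoxia regulators 3 of 9 were higher in the baboon, EPAS1 (4.80 ± 0.33), EGLN3 (2.20 ± 0.54) and EGLN1 (1.44 ± 0.25), and none of 8 in the rhesus monkey at an adjusted p under 0.05. Of the antagonists of angiogenesis 3 of 9 were higher in baboon endothelial-like cells (SEMA3F, SPRY4 and ADAMTS1) and 2 lower (SERPINF1 and SEMA3B), and 1 of 9 was lower in rhesus (SERPINF1, by -2.55 ± 0.50). In baboon Sertoli-like cells 6 of 8 partners and 7 of 11 VEGF-responsive genes were lower and none higher, where 24.1% of all genes were called, most of them (3014 of 4154) lower. Of the antagonists, 4 of 10 were higher there (SEMA3B, COL18A1, VASH1 and SERPINF1) and 3 lower (SEMA3F, SPRY4 and THBS2).

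The same lists were counted in germ-like cells, where 26.5% (baboon) and 29.4% (rhesus) of all genes were called. Of the signal transducers 3 of 10 were higher and 2 lower in the baboon, and 1 of 9 was higher and 2 lower in the rhesus monkey. In the baboon SHB, an adaptor of KDR, was higher by 4.92 ± 0.39 (SE, log2) and PIK3R3, a regulatory subunit of PI3 kinase, by 4.78 ± 0.39, and PIK3R3 was also higher in the rhesus monkey (3.75 ± 0.44; edgeR, adjusted p between 0.000953 and 0.00215). PIK3R1 and PTPN11 were lower in both species. Of the antagonists 1 of 8 was higher and 4 lower in the baboon, and 2 of 10 higher and 6 lower in the rhesus monkey, with medians of -2.08 and -1.87 against -0.15 and -0.12 over all genes. COL18A1, SERPINF1 and SEMA3B were lower in both species, and SPRY4, an inhibitor of receptor tyrosine kinase signaling, was higher in both (2.83 ± 0.47 and 2.55 ± 0.63). Of the hypoxia regulators 1 of 9 and 1 of 7 was higher, EGLN3 in both species (2.32 ± 0.49 and 3.41 ± 0.59), and 2 were lower in each, EPAS1 and EGLN1 in the baboon and HIF1A and ARNT in the rhesus monkey. Of the partners 2 of 8 were lower in the baboon, 5 of 8 in the rhesus monkey, with none higher, NRP1 being lower in the rhesus monkey by -3.11 ± 0.37.

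Genes with the most similar pattern across clusters were endothelial genes for the endothelial receptors. Over 24 sums of a cluster and an animal in the baboon, KDR was most like CDH5, APLNR and MYCT1 (Pearson's r of log2 CPM 0.997, 0.995 and 0.994), and FLT1 like GRB10, SOX17 and EFNB2 (0.977, 0.974 and 0.958). PGF was most like IMPA2 (0.972) and ANGPT1 like LRRN3 and SCN7A (0.965 and 0.958). Over 30 sums in the rhesus monkey, KDR was most like EMCN and ROBO4 (0.979 each), FLT4 like ERG (0.988), TEK like ADCY4 and S1PR1 (0.927 and 0.921) and ANGPT1 like FRZB (0.862). For PGF the closest was EPN2, at 0.730. These values are a description, as the sums share libraries and depth. Each species had a single endothelial-like cluster, so that any gene largely confined to it has a high r with these receptors. CDH5, SOX17, EMCN, ROBO4, ERG and S1PR1 were also on the marker list that named it.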

How the data were processed

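The deposited values are UMI counts per gene and barcode, which the authors made with Cell Ranger 3.1.0 from reads aligned to Panubis1.0 (baboon) or Mmul_10 (rhesus), as whole numbers for all barcodes, before cell calling and without normalization. From these, cells were called in Python 3.11.15 by a rebuilt Cell Ranger rule (UMI cutoff of percentile 99 of the top 5000 barcodes divided by 10, then barcodes of at least 500 UMIs whose profile differed from free RNA at an adjusted p of at most 0.01, and at least 200 genes). Doublets were marked by scrublet scores at 0.8% per 1000 cells and kept. Libraries were normalized with sctransform 0.4.2 and integrated in Seurat 5.3.0 (3000 features without the 10 genes and their pathway lists, 30 components, resolution 0.5).

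Clusters were named from marker lists at a score of at least 0.4 with at least 3 markers. Lists with fewer than 3 detected markers were not counted, a change made after names had been seen, because HBB had left 2 baboon Sertoli-like clusters unnamed. The members, lists and names were chosen with earlier results of these data known. Germ-like and endothelial-like cells were clustered again on 10 components, and sub-groups whose own markers were under the highest level divided by 3, or germ-like sub-groups with more Sertoli than germ cell markers, were left out as alternatives. Genes named are the 10 members, pathway genes that passed the test, with the largest changes first, and the most similar genes.

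UMI sums per animal (both libraries of an animal added) were tested with edgeR 4.0.16 (TMM, filterByExpr, quasi-likelihood), class against all other cells, adjusted over all genes by the Benjamini-Hochberg method at 0.05. The SE given with a log2 fold change is its absolute value divided by the square root of the F statistic of the test. The tests were checked on counts simulated from the real sums with known changes. Both sides of a test come from the same animals. The animal's deviations correlated between a class and the other cells in every comparison (0.505 to 0.815 in the baboon, 0.382 to 0.581 in the rhesus monkey), and a fit with the animal as a block was among the alternatives. Further alternatives were DESeq2 1.42.0, other size factors, cell filters, resolutions and left-out libraries.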

Additional observations from a re-analysis of the deposited data

Results flagged for a closer look

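FLT1 in pericyte-like cells was above the level of all other cells in both baboons, at 5.24 CPM (1 UMI) and 11.3 CPM (2 UMIs), and below it in both rhesus monkeys, where 0 UMIs were found. The opposite direction in every animal of the 2 species brought it here. The difference was not tested, the species have different annotations, and the baboon ratio of 2.08 has a 95% counting interval of 0.427 to 6.14. In the rhesus pericyte-like cells 3 UMIs are 4.85 CPM, above the 3.21 CPM of the other cells. The 0 UMIs there thus do not show a lower level.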

How the results depend on the processing

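Of the 10 genes, 6 were called in baboon endothelial-like cells in every alternative that gave a test. Leaving out the only library of baboon 2 or of rhesus monkey 1 left 1 animal and no test. Under the naming rule in its first form, 0 were called in baboon Sertoli-like cells against 6. With the animal as a replicate block the counts were 6 (germ-like), 5 (pericyte-like) and 8 (stroma-like) in the baboon and 7 (Sertoli-like), 4 (germ-like), 2 (pericyte-like) and 5 (stroma-like) in the rhesus monkey, and the calls it added are given with the results. Without the filter on low counts, the baboon germ-like, pericyte-like and stroma-like counts were 6, 4 and 5, and the rhesus germ-like and stroma-like counts 4 and 4. With DESeq2 they were 4 in baboon pericyte-like, 5 in baboon stroma-like and 4 in rhesus stroma-like cells. With libraries as samples they were 4, 6 and 4, and with doublets left out 4, 4 and 2 in the same classes. With the UMI cutoff alone, the stroma-like counts were 1 in the baboon and 0 in the rhesus cells. With median-of-ratios size factors the rhesus germ-like count was 1. Leaving out 1 library gave 3 to 4 in baboon pericyte-like, 1 to 3 in baboon stroma-like and 0 to 1 in rhesus stroma-like cells. PGF in baboon germ-like cells (18.9 CPM) was 22.7 CPM at resolution 0.8, 22.6 CPM without the sub-groups of low germ cell markers or with more Sertoli than germ cell markers and 26.2 CPM as the mean of the cells' own CPM, which was 36.3 CPM in the rhesus monkey (40.7 CPM). Without the sub-groups with more Sertoli than germ cell markers, rhesus PGF was 46.9 CPM and 1 gene was called. The cause was not tested. The next numbers cover single genes in a class that were called in the main fit or with the animal as a block. Over all settings, 29 of their values moved, 80 passed that had not, 16 no longer passed, 622 did neither and none changed direction. Genes called in neither fit, counts of genes called and levels are not among these. The class with the highest level held for 9 to 10 of the 10 genes in the baboon and 7 to 10 in the rhesus cells. The first naming form and the sub-groups left out were chosen after seeing the data. Low counts limited VEGFB in the rhesus monkey and FLT1 outside endothelial-like cells.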
